A study of Drosophila melanogaster with 7 samples.

Results

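The Toll pathway genes described here are 10 genes of the fly signalling route that runs from the secreted ligand Spätzle to the NF-κB factors Dorsal and Dif. They were taken as the genes spz, Tl, Myd88, tub, pll, cact, dl, Dif, nec and psh, and every probe set whose single gene symbol was one of these was kept. All 10 genes were found, with 13 of the 18769 fly probe sets: Tl, cact and dl had 2 probe sets each and the other members 1 each. RNA came from salivary glands of prepupae, heat shocked for 30 min at 37 °C, dissected 14 h after puparium formation and hybridised to 7 Affymetrix arrays.

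GAL4, a transcription factor of yeast with no counterpart in flies, was driven here by a heat-shock promoter, which is active in all tissues and not in the gland alone. Line X1 carried 2 copies of P{hs-GAL4}X1 and had 3 arrays. Line 89 had 1 array from animals with 2 copies of the P{GAL4-Hsp70.PB}89-2-1 insertion and 1 array from animals with 1 copy. The w1118 strain without GAL4 had 2 arrays. No GAL4-responsive transgene was named for any group, every group was reared at 25 °C and heat shocked, and the series text calls the X1 and w1118 arrays biological replicates. Heat shock was given at 9 h of prepupal life to GAL4 animals and at 9.5 h to w1118 animals, so GAL4, the insertion site, the strain background and the time since heat shock cannot be told apart in a comparison with w1118. In whole glands, fewer cells of a type and less RNA per cell cannot be told apart either.

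In the Toll pathway a protease cascade in the blood, of which Persephone (psh) is one danger-sensing member and which the serpin Necrotic (nec) restrains, ends in the cleavage of pro-Spätzle. Cleaved Spätzle binds the receptor Toll, which recruits the adaptors Myd88 and Tube and the kinase Pelle. The inhibitor Cactus is then degraded, and Dorsal or Dif enters the nucleus. The pathway sets the dorsoventral axis of the embryo and drives antimicrobial peptide genes in the fat body, the main immune organ of the fly. Its role in the salivary gland at this stage is less well known.

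Intensities are dChip values on a linear scale, and values under 16 were raised to 16 before log2 was taken. X1 was compared with w1118 in limma on 5 arrays. Line 89, both copy numbers together, was compared with w1118 and with X1 in a limma fit of all 7 arrays. Calls required an adjusted p under 0.05, with the Benjamini-Hochberg adjustment made over all fly probe sets. Errors of log2 changes are standard errors (SE). Probe sets differ in how well they bind, so levels were compared between arrays and never between genes.

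In X1 the ligand gene spz rose 28.2-fold, the NF-κB gene dl rose 16.1-fold on its brighter probe set and the adaptor gene Myd88 rose about 2-fold, while nec and psh, of the extracellular cascade, fell. These 5 genes made up 6 called probe sets of 13 (46.2%), 4 higher and 2 lower, beside 18.1% called among all fly probe sets (7.5% higher and 10.6% lower). In line 89 only spz and dl were called, with 3 of 13 probe sets (23.1%), all higher, beside 4.38% of all fly probe sets (2.73% higher and 1.65% lower). Neither line had a call for Tl, tub, pll, cact or Dif. The comparisons of X1 and of line 89 with w1118 share the w1118 arrays, so their values stand side by side and are not independent of each other. The median absolute log2 change of the 13 probe sets was 1.11 in X1 and 0.77 in line 89, against 0.45 and 0.32 over all fly probe sets. The X1 and w1118 arrays did not overlap for 13 of 13 probe sets (5 higher and 8 lower), beside 52.8% of all (19.4% higher and 33.4% lower). Line 89 and w1118 did not overlap for 8 of 13 (5 higher and 3 lower), beside 45.5% (22.4% higher and 23.0% lower).

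**Figure D1:**
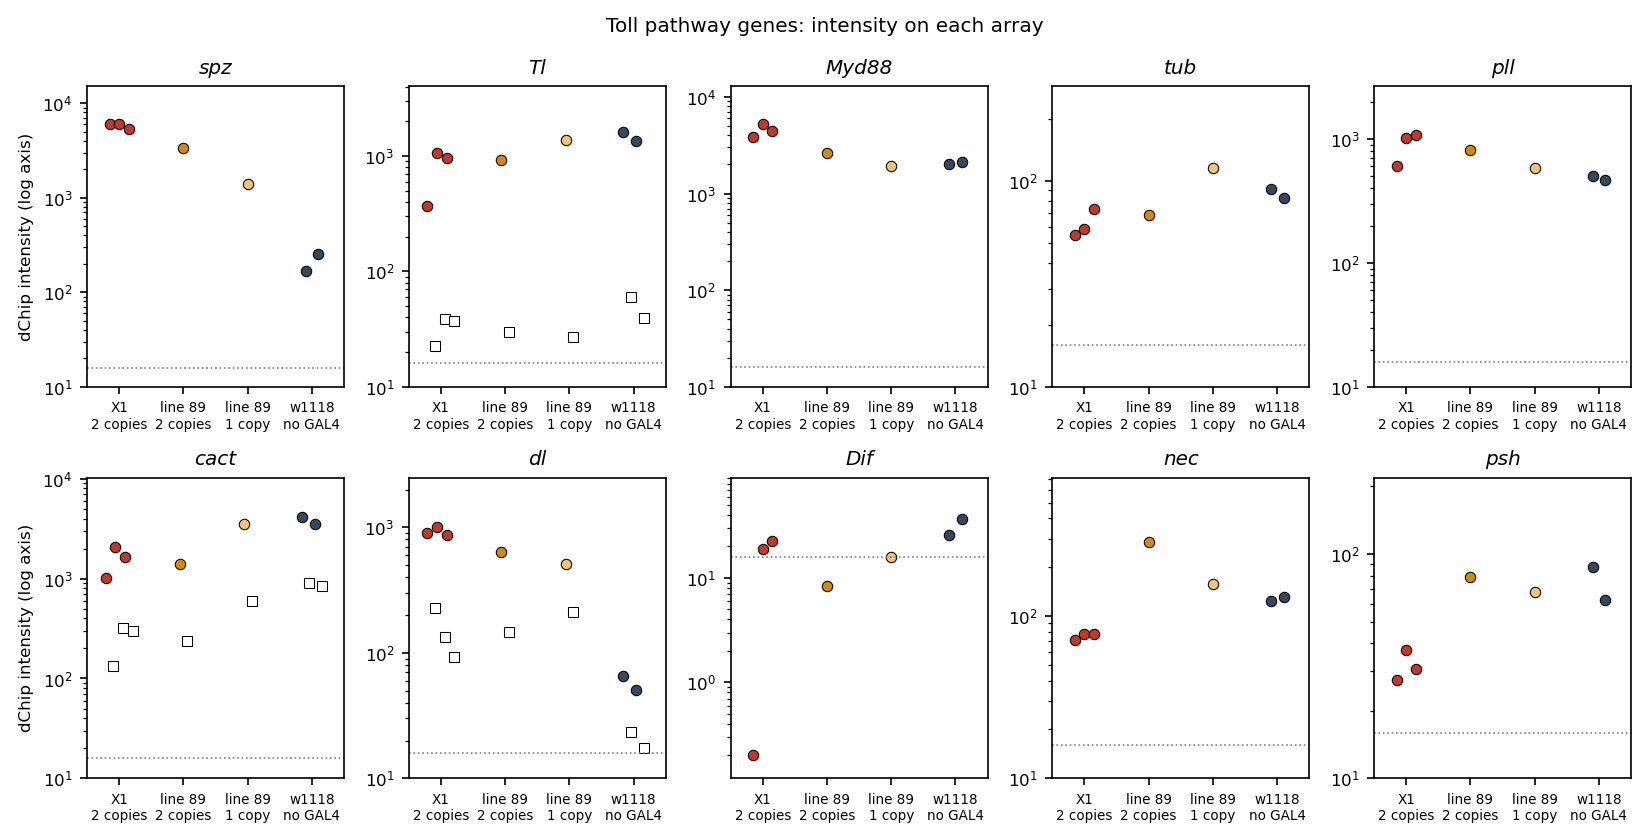
Intensity (log axis) of the 10 Toll pathway genes on each of the 7 arrays, with X1 at the left, line 89 with 2 copies and with 1 copy next, and w1118 at the right. Each point is 1 array. Circles are the brighter probe set of a gene and open squares the dimmer one, and the dotted line marks 16. For spz, all 5 GAL4 arrays (1395 to 6098) lie above both w1118 arrays (169 and 252). For cact, line 89 with 1 copy (3562) lies between the w1118 arrays.

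The arrays differed in ways that bear on these genes. Median intensity of the fly probe sets was 33.7 to 38.0 in X1, 44.9 and 40.8 in line 89 (2 copies, then 1 copy), and 42.2 and 42.5 in w1118. X1 replicate 1 stood apart, with 30.0% of fly probe sets under 16, against 18.8% to 23.7% on the other arrays, and among the X1 arrays it had the lowest level of 8 of the 10 genes, all but spz and dl, including nec and psh. Without it the X1 calls of spz, Myd88, dl and nec held and that of psh ended. The 3′ to 5′ signal ratio of the bacterial dap control was 16.1 to 22.4 in X1, 3.71 and 3.59 in line 89, and 2.12 and 2.91 in w1118. For the fly control eIF-4a this ratio was 1.79 to 2.05 in X1, 2.71 and 1.74 in line 89 (2 copies, then 1 copy), and 1.58 and 1.63 in w1118. The part of these control ratios in the changes of the Toll pathway genes was not tested. Of the 18 measured salivary gland markers, the prepupal genes Eig71Ea, Eig71Ed and Eig71Ef lay between 12824 and 16393 on all 7 arrays. Others were dim or varied, with Eig71Ee at 234 to 1400, the glue gene Sgs1 at 23.3 to 684 and ng2 at 4.62 to 54.2. In X1, 3 of these 18 markers were called higher and 2 lower, beside 9.46% higher and 11.5% lower among all genes. The median log2 change of the 18 was 0.10. The gland transcription factor gene sage was among the 2 lower ones (-1.13, limma, adjusted p = 0.0343).

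The ligand gene spz had the largest change of the 13 probe sets in X1, whereas in line 89 spz and dl differed little, at 3.39 for spz and 3.32 and 3.12 for dl on the log2 scale. For spz, which encodes the cytokine-like precursor that activates Toll once it is cut, X1 intensities were 6003, 6098 and 5356. Line 89 had 3337 with 2 copies and 1395 with 1 copy, and w1118 had 169 and 252. The order was the same for every array: X1 above line 89 with 2 copies, then line 89 with 1 copy, then w1118, with no overlap between lines. In X1 spz rose 28.2-fold (log2 change 4.82 ± 0.21, adjusted p = 0.00219), the 94th highest rise of 18769 probe sets. In line 89 it rose by 3.39 ± 0.45 on the log2 scale (adjusted p = 0.0267). The X1 call of spz held under each of 15 alternatives other than the replicate block. The line 89 call held in 10 of 17 and ended when any of the X1 or w1118 arrays was left out (adjusted p up to 0.125). X1 lay 2.69-fold above line 89, which did not pass the test (1.43 ± 0.41, adjusted p = 0.161).

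The receptor gene Tl did not pass the test in either line. Its brighter probe set had 372, 1071 and 958 in X1, 915 (2 copies) and 1371 (1 copy) in line 89, and 1618 and 1351 in w1118. The X1 arrays all lay under w1118, and X1 replicate 1 lay far under the other X1 arrays. The log2 change of this probe set in X1 was -1.03 with a 95% interval from -2.65 to 0.60 (adjusted p = 0.320). In line 89 it was -0.40, from -1.88 to 1.08 (adjusted p = 0.819). The dimmer Tl probe set, at 22.7 to 38.4 in X1, 29.8 and 27.2 in line 89 and 59.9 and 39.6 in w1118, had log2 changes of -0.62 in X1 and -0.78 in line 89, also not called.

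Of the genes of the complex under the receptor, only Myd88 was called, and only in X1. Myd88, whose product links Toll to Tube, had 3887, 5187 and 4397 in X1, 2622 and 1949 in line 89 (2 copies, then 1 copy), and 2023 and 2110 in w1118. Only the X1 arrays stood clear of w1118, and line 89 lay on both sides of it. Myd88 rose 2.16-fold in X1 (1.11 ± 0.15, adjusted p = 0.0205) and its log2 change in line 89 was 0.13, with a 95% interval from -0.39 to 0.65 (adjusted p = 0.840). The X1 call held in 8 of 15 alternatives and ended without X1 replicate 3 or either w1118 array, with log2 changes from 0.62 to 1.78 over all 15. The test of X1 against line 89 gave 0.98 ± 0.18 (adjusted p = 0.0801), so a difference between the lines was not established for Myd88.

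For pll, the kinase gene, X1 had 601, 1015 and 1069, line 89 had 810 (2 copies) and 584 (1 copy), and w1118 had 498 and 463. All 5 GAL4 arrays lay above w1118, with the least distance in line 89 with 1 copy and X1 replicate 1. The log2 change was 0.85 in X1 (95% interval -0.03 to 1.74, adjusted p = 0.162) and 0.52 in line 89 (-0.35 to 1.39, adjusted p = 0.564). The X1 change was called in 2 of 15 alternatives. It was 1.12 without X1 replicate 1 (adjusted p = 0.0128) and 1.52 with arrays scaled to the hybridization controls (adjusted p = 0.0323). In the reference annotation the span of pll overlaps that of TfIIA-L, a general transcription factor gene, whose own probe set had a log2 change of 0.33 in X1 and was not called. For tub, the adaptor gene, X1 had 54.8, 58.7 and 72.9, line 89 had 68.2 (2 copies) and 115 (1 copy), and w1118 had 91.0 and 82.4. X1 lay under w1118 and the line 89 arrays lay on either side of it. The log2 change of tub was -0.49 in X1 (95% interval -0.94 to -0.04, adjusted p = 0.127) and 0.04 in line 89 (adjusted p = 1.00).

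The inhibitor gene cact had lower values with 2 copies of GAL4 on both of its probe sets, without passing the test. The brighter probe set had 1014, 2097 and 1639 in X1, 1388 in line 89 with 2 copies, 3562 with 1 copy, and 4120 and 3513 in w1118. All 4 arrays with 2 copies lay under w1118, and the array with 1 copy lay between the w1118 arrays. The dimmer probe set had 134, 320 and 299 in X1, 238 in line 89 with 2 copies, 598 with 1 copy, and 898 and 835 in w1118. Here all 5 GAL4 arrays lay under w1118, the 1-copy array least. The X1 log2 changes were -1.33 (95% interval -2.37 to -0.28, adjusted p = 0.0959) and -1.89 (-3.23 to -0.55, adjusted p = 0.0779). In line 89 they were -0.77 (adjusted p = 0.580) and -1.20 (adjusted p = 0.434), with the 2 copy numbers counted as replicates. Both cact probe sets were called in X1 after quantile normalization (-1.75, adjusted p = 0.0253, and -2.13, adjusted p = 0.0428) and among probe sets with a group mean of at least 100 (adjusted p = 0.0262 and 0.0160). The dimmer one was also called without X1 replicate 1 (-1.49, adjusted p = 0.0106). In all, the brighter probe set was called in 2 of 15 alternatives and the dimmer in 3 of 15. Neither was called with a floor of 1 or 64, with equal medians or with arrays scaled to the hybridization controls. The span of cact overlaps that of fzy, a cell cycle gene, whose brightest probe set had a log2 change of -0.58 in X1 and was not called.

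Of the NF-κB genes, dl rose in both lines and Dif was not called. Dorsal (dl) patterns the embryo and shares the immune response of the larva with Dif. The brighter dl probe set had 895, 998 and 871 in X1, 641 and 512 in line 89 (2 copies, then 1 copy), and 64.9 and 50.5 in w1118. Every GAL4 array lay above every w1118 array, and the 2 line 89 arrays lay close to each other and under X1. The rise was 16.1-fold in X1 (4.01 ± 0.14, adjusted p = 0.00165) and was 3.32 ± 0.18 on the log2 scale in line 89 (adjusted p = 0.00249), and both calls held in all 15 and all 17 alternatives other than the replicate block. X1 against line 89 gave 0.68 ± 0.16 (adjusted p = 0.121).

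The dimmer dl probe set had 226, 134 and 92.5 in X1, 147 and 212 in line 89 (2 copies, then 1 copy), and 23.5 and 17.6 in w1118. The same direction was seen on this second probe set, with more spread and with line 89 and X1 overlapping. It rose 6.94-fold in X1 (2.79 ± 0.46, adjusted p = 0.0326) and 8.68-fold in line 89 (3.12 ± 0.47, adjusted p = 0.0373). These calls held in 9 of 15 and 6 of 17 alternatives. They ended without X1 replicate 2 or 3 or either w1118 array, and in line 89 also without either line 89 array. Dif, the factor behind the adult antifungal response, was dim throughout, at 0.201, 18.8 and 22.4 in X1, 8.39 and 15.7 in line 89 (2 copies, then 1 copy), and 25.7 and 36.6 in w1118. All GAL4 arrays lay under w1118, 3 of them under 16, where values have no order. The log2 change of Dif was -0.70 in X1 (95% interval -1.38 to -0.02, adjusted p = 0.143) and -0.94 in line 89 (adjusted p = 0.117), both set in part by the floor of 16.

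**Figure D2:**
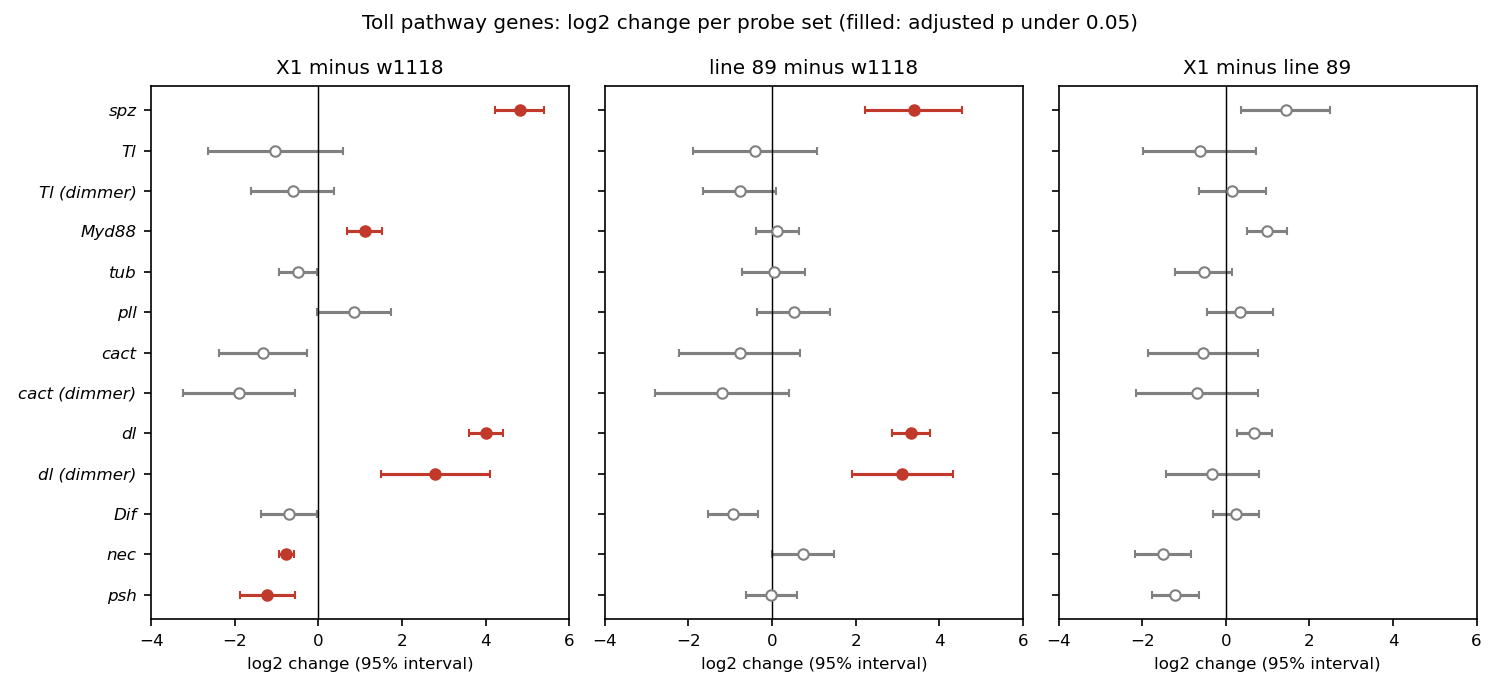
Log2 change of each of the 13 probe sets (rows) in X1 minus w1118, line 89 minus w1118 and X1 minus line 89, with 95% intervals from limma. Filled points have an adjusted p under 0.05. In both left panels spz and both dl probe sets are filled and lie between 2.79 and 4.82, and no point is filled in X1 minus line 89.

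The extracellular genes nec and psh fell in X1. In line 89 neither was called with both copy numbers together. For nec, which encodes a serpin that blocks the cascade upstream of Spätzle, X1 had 70.9, 77.6 and 77.2, line 89 had 286 (2 copies) and 159 (1 copy), and w1118 had 124 and 131. X1 lay under w1118 and line 89 above it, with no overlap on either side. nec fell 1.70-fold in X1 (-0.76 ± 0.07, adjusted p = 0.00840), and its log2 change in line 89 was 0.74 ± 0.28 (adjusted p = 0.274). With the 2-copy array alone, which has no replicate, the line 89 change was 1.16. The X1 call of nec held in 11 of 15 alternatives. It ended with a floor of 1, with all 5 GAL4 arrays as 1 group (adjusted p = 0.925) and in the fit of 7 arrays that gave the line 89 value. It also depended on the scaling: the X1 change was -0.09 (adjusted p = 0.781) when arrays were scaled to the hybridization controls, which moved the median of all probe sets from -0.09 to 0.25. The direct test of X1 against line 89 gave -1.50 ± 0.26 (adjusted p = 0.0686).

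For psh, a protease gene that senses microbial proteases, X1 had 27.3, 37.5 and 30.8, line 89 had 78.8 (2 copies) and 67.4 (1 copy), and w1118 had 87.7 and 62.1. X1 lay under all other arrays, and line 89 lay within the w1118 range. psh fell 2.34-fold in X1 (-1.22 ± 0.23, adjusted p = 0.0435), and its log2 change in line 89 was -0.02, with a 95% interval from -0.63 to 0.59 (adjusted p = 1.00). The X1 call of psh held in only 2 of 14 alternatives and ended when any of the 5 arrays was left out. X1 against line 89 gave -1.21 ± 0.22 (adjusted p = 0.0729).

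Across the lines, limma called 0 of the 13 probe sets in X1 against line 89, beside 1.98% of all fly probe sets (0.73% higher and 1.25% lower). An unadjusted p under 0.05 was found for 5 of the 13 (spz, Myd88, the brighter dl, nec and psh), beside 3618 of all 18769 fly probe sets. The lines did not overlap for 5 of the 13 (3 higher and 2 lower in X1), beside 35.2% of all (11.4% higher and 23.8% lower). Under the alternatives that kept both line 89 arrays the number called was 0 or 1. Myd88 was called when the medians of the arrays were made equal (1.22, adjusted p = 0.0335). Among probe sets with a group mean of at least 100, nec was called (-1.50, adjusted p = 0.0330). It passed that filter only through its line 89 mean (222, against 75.2 in X1). With a single line 89 array only the size of a change is given. It was 2.06 for spz without the 2-copy array, and for nec -1.08 without the 2-copy array and -1.93 without the 1-copy array.

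The number of GAL4 copies could be followed within line 89, on 1 array at each copy number and with no test. At least 2-fold differences were found for spz, which was 2.39-fold higher with 2 copies than with 1 copy, and for both cact probe sets, which were 2.57-fold and 2.51-fold lower. These are 3 of 13 probe sets, beside 18.4% of all fly probe sets that differed at least 2-fold (10.7% higher and 7.75% lower). The dl probe sets differed by 0.33 and -0.54 on the log2 scale, in opposite directions, after a rise over w1118 of 3.16 and 3.39 with 1 copy. Thus the brighter dl probe set was near its 2-copy level with 1 copy, whereas the log2 level of spz over w1118 was 4.02 with 2 copies and 2.76 with 1 copy. cact lay 1.45 under w1118 with 2 copies and 0.10 under it with 1 copy on its brighter probe set, as log2 differences. The log2 differences of the other members between 2 copies and 1 copy lay between -0.76 for tub and 0.85 for nec.

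**Figure D3:**
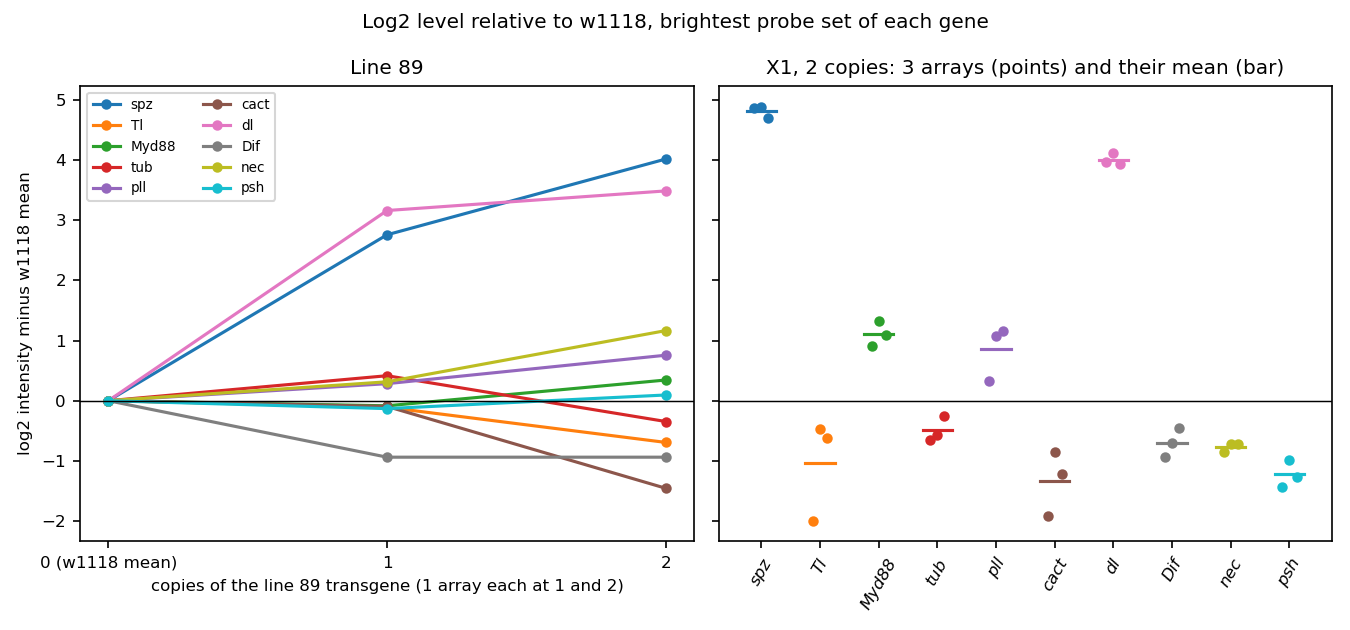
Left, log2 level relative to the w1118 mean against copies of the line 89 transgene (0 is w1118; 1 array each at 1 and 2 copies), with a line per gene. Right, the same measure in the 3 X1 arrays (points, bar for their mean). dl lies at 3.16 with 1 copy and 3.49 with 2 copies, spz at 2.76 and 4.02, and cact at -0.10 and -1.45.

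Neighbouring genes were compared to see whether the changes extended along the chromosome. The 5 genes called in X1 or line 89 have 10 nearest annotated neighbours, of which 7 had a probe set of their own. None of these was called by limma in X1, line 89 or the comparison of the lines, with 0, 1 and 1 at an unadjusted p under 0.05. Their log2 changes in X1 lay between -0.72 for CG15046 beside psh and at least 1.26 for CG34292 beside spz. Both w1118 arrays lay under 16 for CG34292 and Spn43Ad, and so did the w1118 mean for Drep2, CG13739 and CG33928. For these genes the floor limits the changes that can be seen, so the lack of calls cannot show whether changes extended to them. CG34292 had 22.5, 43.8 and 57.2 in X1, 23.3 and 14.8 in line 89, and 8.36 and 7.76 in w1118. The other neighbour of spz, CG43935, overlaps its span and had no probe set, so it was not measured. CG33928, the measured neighbour of dl, lay between 7.18 and 30.3 on all 7 arrays, with a log2 change of 0.18 in X1.

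The genes whose pattern over the 7 arrays lay closest to spz, by Euclidean distance of log2 values centred on w1118, were Yif1 (distance 0.693), Hexo2 (0.693) and SCCRO4 (0.834). Yif1, whose log2 change was 4.71 in X1 and 3.49 in line 89, had 3498, 4089 and 3448 in X1, 2403 and 1024 in line 89 (2 copies, then 1 copy), and 157 and 125 in w1118. Closest to dl were Culd (0.471), CG1486 (0.481) and sowah (0.613). Culd had 997, 1017 and 908 in X1, 545 and 426 in line 89, and 53.1 and 51.9 in w1118. These distances describe likeness over 7 arrays that share their groups and imply nothing of function.

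Other genes of the pathway were counted by list. Among 10 measured genes of the ligand and receptor families, limma called 0 higher and 2 lower in X1: the neurotrophin-like ligand gene NT1 (16.2, 17.2 and 17.1 in X1, 29.3 and 40.7 in w1118) and the Toll-family receptor gene 18w (142, 148 and 137 in X1, 229 and 227 in w1118). The NT1 call, with X1 close to the floor of 16, held in 4 of 14 alternatives and ended with other floors or scalings and without any 1 X1 array, and the 18w call held in 11 of 15. In line 89, 0 of these 10 genes were called, with 1 at an unadjusted p under 0.05, and spz5 was lower in X1 than in line 89 (12.4, 19.4 and 21.2 in X1, 56.1 and 78.3 in line 89, adjusted p = 0.0378). That call of spz5 held in 1 of 15 alternatives, with adjusted p up to 0.876. The background for such gene counts was 9.46% higher and 11.5% lower in X1, 3.54% higher and 1.57% lower in line 89, and 0.985% higher and 1.38% lower in X1 against line 89.

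Of 18 measured genes of recognition and proteolysis outside the cell, 3 rose and 2 fell in X1, and 2 rose and 0 fell in line 89. Spn28Dc, a serpin gene of the melanization response, rose in both, with 7927, 8697 and 7428 in X1, 7050 and 4910 in line 89 and 1904 and 1601 in w1118 (log2 changes 2.20 and 1.75, adjusted p = 0.00332 and 0.0205). easter (ea), the protease gene that cuts Spätzle in the embryo, lay under 16 in both w1118 arrays and rose at least 3.22-fold in X1 and was also called in line 89 (adjusted p = 0.0461). The protease gene Hayan, a relative of psh, rose by 0.72 on the log2 scale in X1 while psh fell. Spn77Ba, a serpin gene of the tracheal melanization response, fell 6.34-fold in X1, at 162, 210 and 247, against 1327 and 1250 in w1118, and was also lower in X1 than in line 89 (647 and 769, adjusted p = 0.0340). Spn42Dd fell by 1.37 on the log2 scale in X1. The X1 calls held in 15 of 15 alternatives for Spn28Dc, 12 of 15 for Spn77Ba, 9 of 14 for ea and 7 of 15 for Hayan and Spn42Dd. In line 89 that of Spn28Dc held in 11 of 17 and that of ea in 6 of 16, and the call of Spn77Ba between the lines held in 7 of 16. The Spn77Ba fall in X1 ended without either w1118 array, and the X1 calls of Hayan, ea and Spn42Dd ended without X1 replicate 3 or w1118 replicate 1.

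Among 18 measured intracellular regulators, 0 rose and 2 fell in X1 and 0 were called in line 89. There 4 had an unadjusted p under 0.05, beside 3356 of all 18769 fly probe sets. Traf4, a signalling adaptor gene, fell 7.12-fold in X1, at 75.3, 91.5 and 62.8, against 567 and 511 in w1118 (adjusted p = 0.00498). In line 89 Traf4 had 83.7 and 178 (log2 change -2.14, adjusted p = 0.0593). dnr1, a RING protein gene that restrains the Imd pathway, had 125, 246 and 237 in X1 and 841 and 780 in w1118 and fell 4.18-fold. The Traf4 call held in 15 of 15 alternatives. Traf4 reached a group mean of at least 100 only in w1118 (539, against 76.6 in X1), so that alternative adds nothing to its tally. The dnr1 call held in 7 of 15, ending without X1 replicate 2 or 3, without either w1118 array and with hybridization scaling. The NF-κB gene of the Imd pathway, Rel, had 1755, 3377 and 2606 in X1, 2190 and 1186 in line 89, and 1108 and 1254 in w1118, and was not called (1.08 ± 0.33 in X1, adjusted p = 0.114); it is named here after its values were seen.

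**Figure D4:**
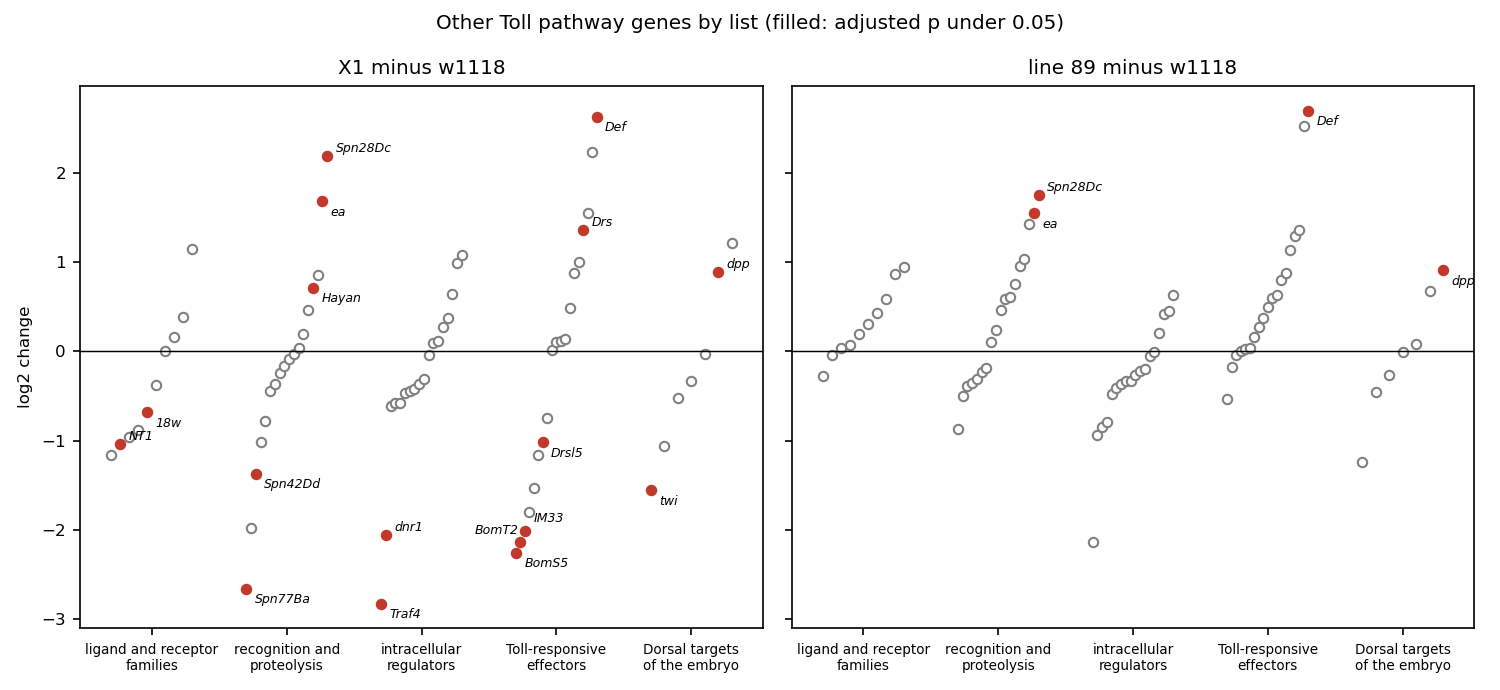
Log2 change of the other Toll pathway genes, in 5 lists along the horizontal axis, for X1 minus w1118 (left) and line 89 minus w1118 (right). Each point is 1 gene by its brightest probe set, and filled, named points have an adjusted p under 0.05. Calls lie on both sides of 0 in X1, from -2.83 for Traf4 to 2.64 for Def, and only above 0 in line 89.

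Of 19 measured genes listed as Toll-responsive effectors, mostly of small secreted peptides, 2 rose, 4 fell and 13 were not called in X1. In line 89, 1 rose, 0 fell and 18 were not called. These counts stand beside the backgrounds of 9.46% higher and 11.5% lower in X1 and 3.54% higher and 1.57% lower in line 89. Whether the listed genes respond to Toll in the gland was not tested. Drosomycin (Drs), the antifungal peptide gene most used as a readout of Toll, had 7090, 4807 and 5241 in X1, 6250 and 2609 in line 89 (2 copies, then 1 copy), and 2622 and 1838 in w1118. Its rise in X1 was 2.57-fold (1.36 ± 0.26, adjusted p = 0.0466) and held in 3 of 15 alternatives, and in line 89 its log2 change was 0.88 (adjusted p = 0.461). Defensin (Def), an antibacterial peptide gene that the Imd pathway also controls, had 13470, 13665 and 13680 in X1, 13017 and 15624 in line 89, and 3385 and 1415 in w1118, and rose at least 6.22-fold in X1 and at least 6.52-fold in line 89. All 5 GAL4 values lay near the top of the scale, where the highest intensity of any fly probe set was 16393 to 17212 on an array, so the folds are given as lower bounds. The Def calls held in 10 of 15 and 8 of 17 alternatives and ended without any 1 X1 array, and in line 89 also without either line 89 array. The w1118 arrays differed more than 2-fold from each other in Def.

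Of the measured Bomanin genes, which encode short peptides that depend on Toll after infection, only BomS5 and BomT2 were called in X1, both lower. The others went both ways, from a log2 change of -1.53 for BomS2 to 1.00 for BomT3. BomS4 and BomBc2 also had negative changes, and BomBc3 and BomS6 small positive ones. BomS5 had 22.8, 34.0 and 35.7 in X1, 63.3 and 158 in line 89, and 168 and 125 in w1118 and fell 4.78-fold in X1 (adjusted p = 0.0181). BomT2 fell 4.41-fold in X1 (adjusted p = 0.00997), where 2 arrays lay under 16. BomBc2 had 15.4, 25.7 and 21.5 in X1, 457 and 157 in line 89, and 44.3 and 48.2 in w1118, and differed between X1 and line 89 (-3.69 ± 0.50, adjusted p = 0.0446). The immune peptide gene IM33 had 445, 644 and 753 in X1, 3330 and 2562 in line 89, and 2575 and 2274 in w1118, and was lower in X1 than in either (log2 changes -2.01 against w1118 and -2.28 against line 89, adjusted p = 0.0212 and 0.0349). The Drosomycin-like gene Drsl5 fell by 1.02 on the log2 scale in X1. The X1 calls held in 8 of 15 alternatives for BomS5 and IM33, 7 of 14 for BomT2 and 6 of 15 for Drsl5, and each ended without X1 replicate 2 or w1118 replicate 1. The calls of BomBc2 and IM33 between the lines held in 8 of 16. Drsl2 was not called, and it was high on X1 replicate 1 alone, at 4710, against 63.4 and 82.4 on the other X1 arrays.

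**Figure D5:**
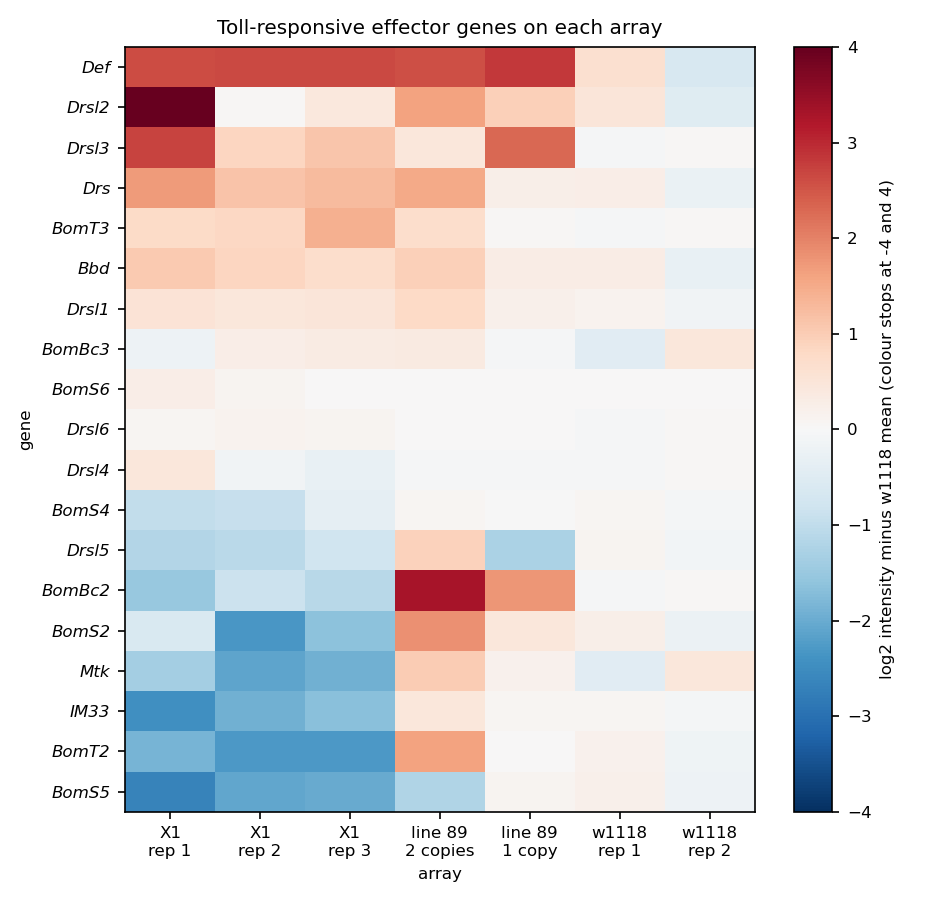
Log2 intensity minus the w1118 mean for 19 Toll-responsive effector genes (rows) on each of the 7 arrays (columns), red for higher and blue for lower, with the colour stopping at -4 and 4. Def is red on all 5 GAL4 arrays, while BomS5, BomT2 and IM33 are blue on the 3 X1 arrays. Drsl2 is red mainly on X1 replicate 1 (4710).

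Of 7 measured genes that Dorsal regulates in the embryo, 1 rose, 1 fell and 5 were not called in X1. In line 89, 1 rose, 0 fell and 6 were not called. The backgrounds were 9.46% higher and 11.5% lower in X1 and 3.54% higher and 1.57% lower in line 89. The growth factor gene dpp, which Dorsal represses in the embryo, rose in X1 (89.9, 93.6 and 100, against 53.2 and 48.8 in w1118) and in line 89 (95.2 and 96.8). Its log2 changes were 0.89 and 0.91 (adjusted p = 0.00833 and 0.0135). twi, a mesoderm gene that Dorsal activates there, fell by 1.56 on the log2 scale in X1, at 24.3 to 31.1, against 81.6 and 76.3 in w1118. In line 89 twi had 38.8 (2 copies) and 85.6 (1 copy) and was not called (adjusted p = 0.645). The dpp calls held in 13 of 14 alternatives in X1 and 12 of 16 in line 89, and the twi call held in 11 of 14 and ended without either w1118 array.

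Markers of tissues that could adhere to dissected glands were set beside these values. Summed over 11 fat body genes, intensity was 13063 to 19776 in X1, 22393 and 16606 in line 89 (2 copies, then 1 copy), and 17039 and 17721 in w1118, with 1 gene higher (Lsd-1) and 2 lower (Fbp2 and Yp1) in X1 and 0 called in line 89. Lsd-1, a lipid droplet gene, had 8388, 5026 and 4246 in X1, 7728 and 618 in line 89 (2 copies, then 1 copy), and 320 and 510 in w1118. Fbp2 had 27.2, 54.3 and 52.1 in X1, 37.7 and 996 in line 89, and 1647 and 2267 in w1118. Both genes thus lay apart in the arrays with 2 copies. The fat body storage protein gene Lsp2 lay between 4178 and 6458 on all 7 arrays. The sum over 18 hemocyte genes was 13438 to 14998 in X1, 13158 and 14882 in line 89, and 13294 and 13254 in w1118, with 0 higher and 2 lower in X1 and 0 called in line 89. The hemocyte genes Hml and eater were at 54.7 or less on every array, while 7 of the 18 hemocyte genes had a w1118 mean over 100. Over 13 muscle genes the sum was 13381 to 14078 in X1, 14004 and 13823 in line 89, and 1142 and 1136 in w1118, with 2 higher and 3 lower in X1 and 2 higher and 0 lower in line 89. Most of that sum came from 1 gene, the troponin C gene TpnC73F, at 12639 to 12930 in X1, 12379 and 12389 in line 89, and 160 and 169 in w1118, and the median log2 change of the list was 0.00 in X1 and 0.12 in line 89. The 18 salivary gland genes had 3 higher and 2 lower in X1, and 0 called in line 89. The backgrounds for these marker counts were 9.46% higher and 11.5% lower in X1 and 3.54% higher and 1.57% lower in line 89. The part of fat body or muscle RNA in the Toll pathway values was not tested.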

How the data were processed

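The deposited table gives a linear intensity per probe set, made by the authors with dChip and normalised to a shared baseline array (median 145), per the series text. No dChip version or expression model is given in the sources used here. The table held 18952 probe sets in 7 columns, of which 183 were Affymetrix controls. The platform annotation gave 1 symbol for 13646 of the 18769 fly probe sets, several for 402 and none for 4721, and 13543 matched a reference gene table (RefSeq, Release 6) by Entrez gene, which was used for names and neighbours. Probe sets with several symbols were not used as members or list genes.

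Values under 16 were raised to 16 and log2 was taken. X1 and w1118 (5 arrays) and the 3 lines (7 arrays, both line 89 arrays as 1 group) were fitted with two-sided moderated tests of limma 3.58.1 in R 4.3.3, with Benjamini-Hochberg adjustment over 18769 probe sets, after the code was tested on simulated arrays. A fold is 2 to the power of the log2 difference, and "at least" marks a dimmer group that lay at or under 16. List genes entered with their brightest probe set. Called genes of the pathway, effector and Dorsal target lists were named, up to 5 in each direction. Those of the marker lists were counted, and only some were named. The members and lists, of the ligand and receptor families, extracellular recognition and proteolysis, intracellular regulators, effectors, embryonic Dorsal targets and markers of salivary gland, fat body, hemocytes and muscle, were chosen with earlier results of these data known. Alternatives covered floors, scalings, a filter on dim probe sets, another variance prior, other groupings, a replicate block and leaving out each array. The filter kept probe sets with a mean of at least 100 in either group compared. In comparisons of X1, nec passed it only through the brighter group, as did dl in comparisons with w1118. The same was true of Traf4, Spn42Dd and BomS5 in X1 against w1118, and of BomBc2 in X1 against line 89. The tallies of alternatives count the filter, but a call under it is no further support for any of these genes. In the line 89 tallies against w1118, leaving out 1 line 89 array and taking the other alone were the same fit, counted under 2 names. In the tallies of X1 against line 89 this holds for the 2-copy array taken alone. Such a fit holds a single line 89 array, so its spread comes from the other groups. The number of arrays limits the precision.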

Additional observations from a re-analysis of the deposited data

Results flagged for a closer look

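Among the 13 probe sets, that of the serpin gene nec was flagged because every X1 array lay on one side of the w1118 arrays and both line 89 arrays on the other. This order is not particular to nec: spz5, BomBc2 and BomS2, outside the members, had it too. Its share over all fly probe sets was not counted. nec had 70.9 to 77.6 in X1, 286 and 159 in line 89 (2 copies, then 1 copy), and 124 and 131 in w1118. The log2 difference of X1 minus line 89 was -1.50 (limma, adjusted p = 0.0686). The 2-copy array of line 89, which has no replicate, lay 1.16 above w1118 on the log2 scale. With both line 89 arrays, the difference between the lines did not pass the test over all fly probe sets. No group had the 4 arrays needed to flag single arrays by a rule, so X1 replicate 1 was described above by its values only.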

How the results depend on the processing

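Counts of called probe sets changed with the processing more than directions did. For X1 against w1118 (6 of the 13 probe sets, 3404 of all), the counts were 3 with a floor of 1, 3 and 1394 with a floor of 64, 3 and 1230 with all 5 GAL4 arrays as 1 group, and 3 and 1181 at adjusted p under 0.01. Leaving out 1 array gave 3 to 7 and 1619 to 4170 (1619 without X1 replicate 2 and 1663 without X1 replicate 3). A block for the replicate number gave 0 and 0 limma calls, with 7 of the 13 and 4491 of all at an unadjusted p under 0.05. The numbers pair nothing known: deviations of same-numbered X1 and w1118 arrays correlated at -0.05 and -0.01. For line 89 against w1118 (3 and 822) the total was 409 with a floor of 1, 489 with a floor of 64 (1 of the 13), 1339 with hybridization scaling, 1804 with the 2-copy array alone and 197 at adjusted p under 0.01 (1 of the 13), and 1 to 3 and 254 to 1804 without 1 array. For X1 against line 89 (0 and 371) it was 62 with a floor of 1, 113 with a floor of 64, 204 with hybridization scaling, 139 with a trend and robust prior, 985 against the 2-copy array alone (1 of the 13) and 23 at adjusted p under 0.01. One of the 13 was called with equal medians and 1 with the filter on dim probe sets, and leaving out 1 array gave 0 to 2 and 0 to 1138 (0 without X1 replicate 2 or 3, with 2922 and 3120 at an unadjusted p under 0.05). Among the 13 probe sets, direction turned only for values that were not called. In X1, hybridization scaling gave 0.054 for the dimmer Tl and 0.18 for tub. In line 89 it gave 0.18 for the brighter Tl and 0.56 for psh. Also in line 89, Myd88 was -0.22 after quantile normalization and -0.084 with 1 copy alone, tub was -0.043 after quantile normalization, -0.35 with 2 copies alone and -0.036 without w1118 replicate 2, and psh was 0.095 with 2 copies alone and 0.23 without w1118 replicate 1. Leaving out 1 array, the ranges were -0.084 to 0.34 for Myd88, -0.35 to 0.42 for tub and -0.27 to 0.23 for psh. In X1 against line 89, the brighter cact was 0.13 against the 2-copy array alone (-1.23 to 0.13 without 1 array) and Dif was -0.61 with a floor of 1. The median shift by hybridization scaling, 0.25 in X1 and 0.40 in line 89, left spz at 5.23 and the brighter dl at 4.42 above it in X1. Between copy numbers, Dif was -0.90 with a floor of 1, and Myd88 and the brighter dl were 0.19 and 0.09 with hybridization scaling. The cause of these shifts was not tested.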
